A study of Homo sapiens with 4 samples.

Results

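The genes described here encode the factors that carry out the elongation step of translation in the cytoplasm: EEF1A1, EEF1B2, EEF1D, EEF1G and EEF2, together with EIF5A. They were chosen by symbol, as all listed crosslink sites whose gene label held 1 of these 6 exact symbols, out of 14387 genes with a site in either list. The data are iCLIP, in which UV light cross-links RNA to protein, the protein is immunoprecipitated, and the ends of the cDNAs mark the nucleotide that was attached to it. The cells were MCF10A, an established untransformed breast epithelial line of WT genotype, grown with horse serum, epidermal growth factor, insulin, hydrocortisone and cholera toxin. One group was precipitated with antibody against PDCD4, an RNA-binding protein that inhibits the initiation helicase eIF4A, and the other with control IgG. Each group had 2 labelled replicates, which the authors pooled in 1 list of sites. There is thus no spread between replicates, and no test of PDCD4 against IgG was made here. According to the methods, the authors tested differential binding with DESeq2, and those values are not given here.

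Each listed site is 1 nt wide, and its score is the number of cDNAs counted there. The PDCD4 list held 158922 sites with 409308 cDNAs, and the IgG list held 111361 sites with 276139 cDNAs. All intervals below are 95% intervals and cover counting error only. RNA abundance was not analysed here, and more binding cannot be told apart from more RNA of a gene in these counts. Of 10 epithelial marker genes, all were present among the PDCD4 sites and 9 among the IgG sites, whereas none of 10 markers of blood, endothelial and fibroblast cells had a site in either.

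Elongation adds amino acids to the growing protein in a repeated cycle. eEF1A, encoded by EEF1A1, brings aminoacyl-tRNA to the ribosome as a complex with GTP, and the eEF1B complex (EEF1B2, EEF1D and EEF1G) recharges it with GTP after use. eEF2 then moves the ribosome along the mRNA, and eIF5A, the only protein known to carry the modified lysine hypusine, helps peptide bonds to form where the ribosome stalls. The mRNAs of most of these factors begin with a 5′ terminal oligopyrimidine tract, which ties their translation to mTOR signalling as for the ribosomal proteins.

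Some of the highest single sites lay at the nucleotides in capitals in these stretches of the human genome (GRCh38), each read 5′ to 3′ on the gene's strand in DNA letters. They hold a small part of the 1243 PDCD4 cDNAs of the 6 genes. The stretches show the highest PDCD4 site of EIF5A, EEF2, EEF1A1 and EEF1G, and 2 further high sites in the 3′UTR of EIF5A. For the EIF5A sites with scores of 19 and 10, and for the EEF1A1 and EEF1G sites, the following 30 nt also occurred at 1 other place of the genome.
EIF5A, 3′UTR, chr17:7312112-7312141, plus strand, score 19: ttttttttttttttTtttaattcaatctgg
EIF5A, 3′UTR, chr17:7312212-7312241, plus strand, score 11: ttgcctatagccctTtaccctgagcaccac
EIF5A, 3′UTR, chr17:7312283-7312312, plus strand, score 10: ctccccaaacccctTtagatggggagggaa
EEF2, coding sequence, chr19:3978062-3978091, minus strand, score 15: cacaaccggctgtaCatgaaggcgcggccc
EEF1A1, coding sequence, chr6:73518234-73518263, minus strand, score 13: tgattatcctgaacCatccaggccaaataa
EEF1G, coding sequence, chr11:62559793-62559822, minus strand, score 6: caggtggactacgaGtcatacacatggcgg
None of these 6 nucleotides was in the IgG list. According to the methods, the authors removed IgG crosslink sites from the PDCD4 samples, so the lack of an IgG site at a PDCD4 nucleotide is partly set by the processing and is no contrast between the lists.

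Together, the 6 genes held 355 of the sites listed for PDCD4, with 1243 cDNAs or 0.304% of that list. For IgG they held 88 sites, with 265 cDNAs or 0.0960%. Of their positions, 6 were in both lists, 2 in each of EEF1G, EEF2 and EIF5A. Over the whole lists, 721 positions were in both, beside 158922 PDCD4 sites. The removal of IgG sites from the PDCD4 samples partly sets this overlap, and nothing is read from it. On the log2 scale the share of cDNAs was 1.66 higher in the PDCD4 list (interval 1.47 to 1.86; 1 cDNA was added to each sum here and in all ratios below). The genes did not behave as a block: EIF5A had the highest ratio, EEF1A1, EEF1D and EEF2 lay between 1.35 and 1.97, and EEF1G, by its labelled sites, had a smaller share for PDCD4 than for IgG. Without EIF5A the pooled value was 1.27 (1.07 to 1.49).

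EIF5A had 102 sites with 413 cDNAs for PDCD4 and 13 with 34 for IgG, a log2 ratio of 2.996 (2.53 to 3.58). EEF2 had 129 sites with 402 cDNAs against 34 with 106, a log2 ratio of 1.35 (1.04 to 1.68). These 2 genes held most of the cDNAs of the group, and the interval of EIF5A lay wholly above those of EEF2 and EEF1D. EEF1A1 had 16 sites with 63 cDNAs against 4 with 10, giving 1.97 (1.11 to 3.22), an interval that overlapped that of EIF5A.

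Among the subunits of the exchange complex the values went in different directions. EEF1D, which encodes the delta subunit, had 94 sites with 329 cDNAs for PDCD4 and 27 with 81 for IgG, a log2 ratio of 1.44 (1.10 to 1.82). EEF1B2, the catalytic beta subunit, had 8 sites with 17 cDNAs against 2 with 9, and the interval of its ratio of 0.28 held 0 (-0.90 to 1.70). EEF1G, the gamma subunit that holds the complex together, had 6 sites with 19 cDNAs against 8 with 25, a log2 ratio of -0.95 (-1.91 to -0.04).

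The EEF1G value depended on how sites were labelled. Every EEF1G site was also labelled with a readthrough gene that spans it, and within the bounds of EEF1G that label alone was carried by 8 further PDCD4 sites (16 cDNAs) and 2 IgG sites (4 cDNAs). With these sites added, the log2 ratio of EEF1G was -0.30, and its interval held 0 (-1.05 to 0.47).

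To read these values against other genes, the fold threshold was a log2 ratio above 1. Among the 3970 genes with at least 50 cDNAs over both lists, 13.6% passed it and the median log2 ratio was -0.14. EEF1B2 and EEF1G had fewer than 50 cDNAs. The other 4 of the 6 genes reached that minimum, and all 4 passed the threshold. EEF1A1 reached it through the PDCD4 list, with 63 cDNAs there and 10 for IgG. For such a gene the minimum partly selects for a high ratio, so no conclusion is drawn from the count of 4. Of the 3970 genes, 42 had a higher ratio than EIF5A, 143 than EEF1A1, 305 than EEF1D and 349 than EEF2. The ratio also varied by region: over all protein-coding genes it was 0.60 in exons and -0.45 in introns. Within exons it was 1.11 in coding sequence and 0.22 in 3′UTRs. In coding sequence, EEF2 was at 1.40 (1.06 to 1.79) and EEF1A1 at 1.96 (0.96 to 3.51), and both intervals held 1.11. The 3′UTR of EIF5A was at 3.14 (2.62 to 3.81), above the 0.22 of all 3′UTRs. Counted in exons only and over the exonic cDNAs of protein-coding genes, the pooled value of the 6 genes was 1.32 (1.09 to 1.56). EIF5A was then at 2.49 (2.01 to 3.11), and EEF2, at 0.77 (0.45 to 1.12), no longer passed the threshold.

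**Figure D1:**
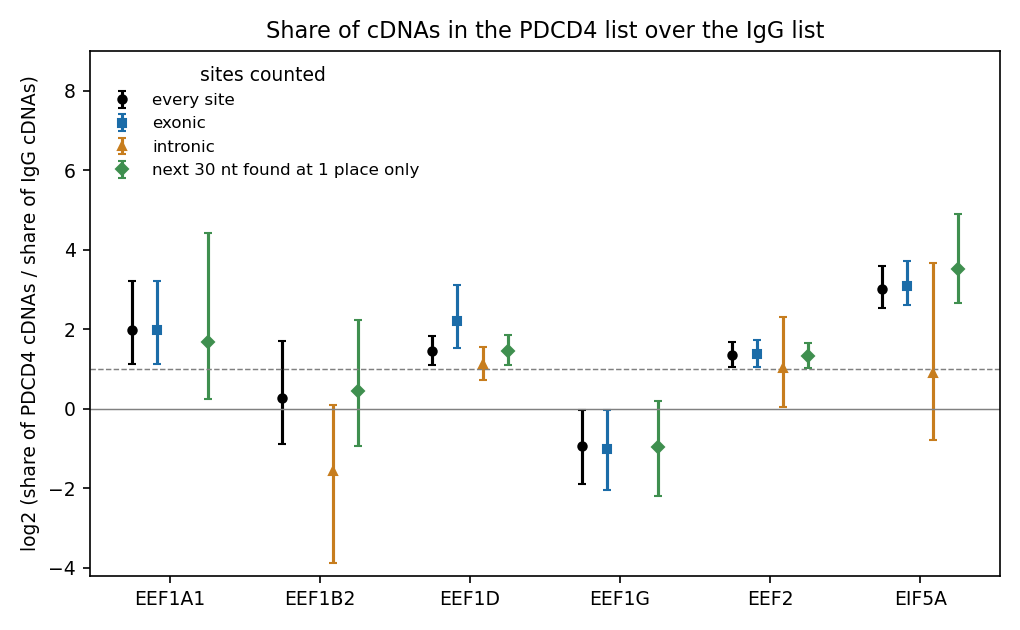
Log2 ratio of each gene's share of cDNAs in the PDCD4 list over its share in the IgG list, with 95% counting intervals, for every site, exonic sites, intronic sites and sites whose following 30 nt occur at 1 place of the genome; values with fewer than 10 cDNAs or with none in the IgG list are not drawn, and the dashed line is the fold threshold. EIF5A sits highest in exons (3.09) and at single-copy sites (3.50), EEF1D is higher in exons (2.20) than in introns (1.11), and EEF1G lies below 0 by its own labelled sites.

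The study's methods keep sites with a score greater than 5. At that threshold 42 PDCD4 sites remained, with 363 cDNAs, and 3 IgG sites, with 18. They were 11.8% of these genes' sites for PDCD4 (8.87 to 15.6) and 3.41% for IgG (1.17 to 9.55). Over the whole lists the same shares were 1.48% and 0.690%. EIF5A held 18 of the PDCD4 sites, EEF1D 11, EEF2 9, EEF1A1 3 and EEF1G 1, and EEF1B2 held none. The 3 IgG sites were 2 in EEF2 and 1 in EEF1B2.

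EIF5A, EEF1D, EEF1A1 and EEF1G thus had sites above the threshold in the PDCD4 list alone, with 189, 75, 26 and 6 cDNAs. Their 34, 81, 10 and 25 IgG cDNAs all lay at sites with scores of 5 or less, so no fold is given here for these genes. EEF2 had 67 cDNAs at such sites against 12, and the interval of its log2 ratio of 0.43 held 0 (-0.37 to 1.55). Of the 1520 genes with a site above the threshold in either list, 27.5% had a log2 ratio above 1, and 3 of the 6 genes did. These 3 were EIF5A, EEF1D and EEF1A1. Their IgG count was 0, so that passing was set by the PDCD4 count, the added cDNA and the totals, and no comparison is drawn from it.

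Levels can be compared between genes only per length. Per kb of the MANE Select transcript, the reference isoform, EIF5A had 316 exonic PDCD4 cDNAs (285 to 348) and EEF2 had 115 (103 to 127). EEF1A1 had 13.7, EEF1D 13.4, EEF1G 11.1 and EEF1B2 8.66, and the intervals of these last 4 genes overlapped, so that their order is not resolved. The EEF1D level counts only the 28 cDNAs in exons of its MANE transcript, whereas exons of all its transcripts held 122. In the IgG list EEF2 had 30.4 cDNAs per kb (24.6 to 37.1) and EIF5A 24.5 (16.7 to 34.8), which overlapped, followed by EEF1G with 13.1 (7.91 to 20.5). EEF1A1 was at 2.85 and EEF1D at 1.44, and EEF1B2 had no exonic cDNA there, with an upper limit of 4.57 per kb. EIF5A and EEF2 were thus separated by their intervals for PDCD4 and not for IgG.

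**Figure D2:**
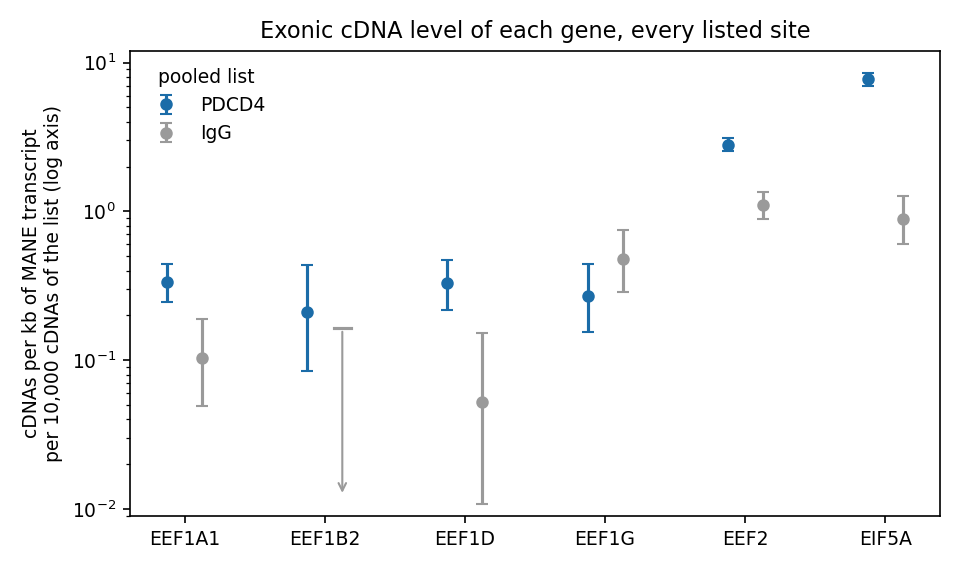
Exonic cDNAs per kb of the MANE transcript, per 10000 cDNAs of each pooled list, on a log axis, with exact 95% Poisson intervals; the arrow marks the upper limit for EEF1B2 in the IgG list, where there was no cDNA. EIF5A (7.71) and EEF2 (2.81) stand above the other genes in the PDCD4 list, and EEF1G is the gene whose IgG value (0.476) is higher than its PDCD4 value (0.270), with overlapping intervals.

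The genes also differed in which part of the transcript held their sites. EIF5A sites were concentrated in its 3′UTR: 87 of its 102 PDCD4 sites (85.3%, 77.1 to 90.9) lay there, as did 11 of its 13 IgG sites (84.6%). EEF2 sites were mostly coding, at 97 of 129 PDCD4 sites (75.2%) and 25 of 34 IgG sites (73.5%). EEF1D had 57 of 94 PDCD4 sites (60.6%) and 21 of 27 IgG sites (77.8%) in introns. For comparison, 21.7% of the PDCD4 sites of all protein-coding genes were in coding sequence, 21.6% in 3′UTRs and 49.99% in introns. In EIF5A and EEF2 the region that held most sites was thus the same in both lists, and the lists differed in the number of cDNAs. These shares take regions over all transcripts of a gene. By the MANE transcript alone the EEF2 shares were further apart between the lists, as given below. EEF1A1 had 11 of its 16 PDCD4 sites in coding sequence and EEF1G 5 of 6.

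**Figure D3:**
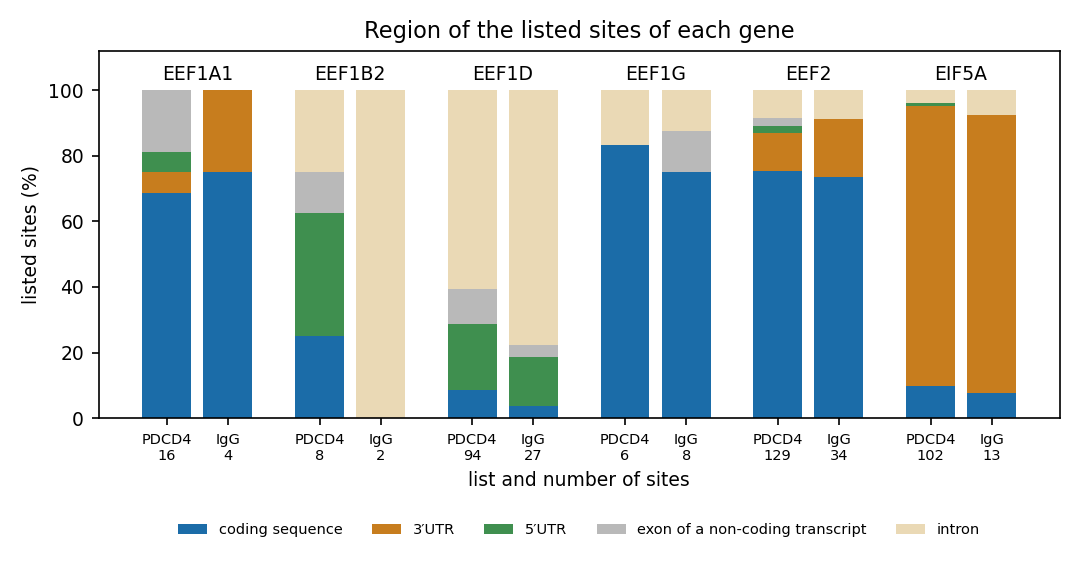
Share of each gene's listed sites by region of its own transcripts, in both lists, with the number of sites under each bar. The 3′UTR takes 85.3% of EIF5A sites in the PDCD4 list, coding sequence 75.2% of EEF2 sites and introns 60.6% of EEF1D sites.

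Among sites with a score greater than 5, 14 of the 42 PDCD4 sites of these genes (33.3%, 21.0 to 48.4) were coding, and 2 of the 3 IgG sites. For all protein-coding genes the coding share was 45.3% for PDCD4 and 18.6% for IgG. EIF5A lowered the value of the group, since without it 13 of 24 sites (54.2%, 35.1 to 72.1) were coding.

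In EIF5A (chr17:7306999-7312463, plus strand), 87 of the 97 sites within the MANE transcript and 365 of its 399 cDNAs fell in the last exon, downstream of the stop codon. The 3′UTR is 656 nt long and held 556 cDNAs per kb for PDCD4 and 41.2 for IgG, a log2 ratio of 3.14 (2.62 to 3.81). The 462-nt coding sequence held 34 cDNAs against 4, 28 of the 34 in its first 154 nt, at a log2 ratio of 2.24 (1.03 to 4.48). The 146-nt 5′UTR of this transcript had no site in either list, and the last 154 nt of the coding sequence had none either.

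The highest stack of cDNAs in EIF5A lay on a run of U. The longest uninterrupted U run of the transcript is 20 nt long (positions 911 to 930, chr17:7312110-7312129). It held 16 PDCD4 sites with 110 cDNAs and no IgG site. The run was examined after the highest sites were seen. The IgG list was not empty next to it: in the densest 20 nt for PDCD4 (chr17:7312118-7312137, chosen after the values were seen), which reaches past the end of the run, 14 PDCD4 sites held 122 cDNAs, 29.5% of the gene's total, and 3 IgG sites held 7. The 3 highest sites of the gene, with scores of 19, 18 and 15, were inside the run at positions 927, 922 and 923 of the transcript, and a further site of 15 was at position 924. For 12 of the 14 PDCD4 sites of the densest 20 nt, those at 927, 922 and 923 among them, the following 30 nt also occurred elsewhere in the genome.

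The EIF5A ratio did not rest on that stretch. Without it the gene had 88 sites with 291 cDNAs against 10 with 27, a log2 ratio of 2.81 (2.29 to 3.49). Further sites with a score of 10 or more lay in the 3′UTR at positions 788, 1027 and 1098 of the transcript, with 10, 11 and 10 cDNAs. In the other 5 transcripts the longest U runs were 4 to 9 nt, and none of these runs held a PDCD4 site, while that of EEF2 held 2 IgG sites.

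**Figure D4:**
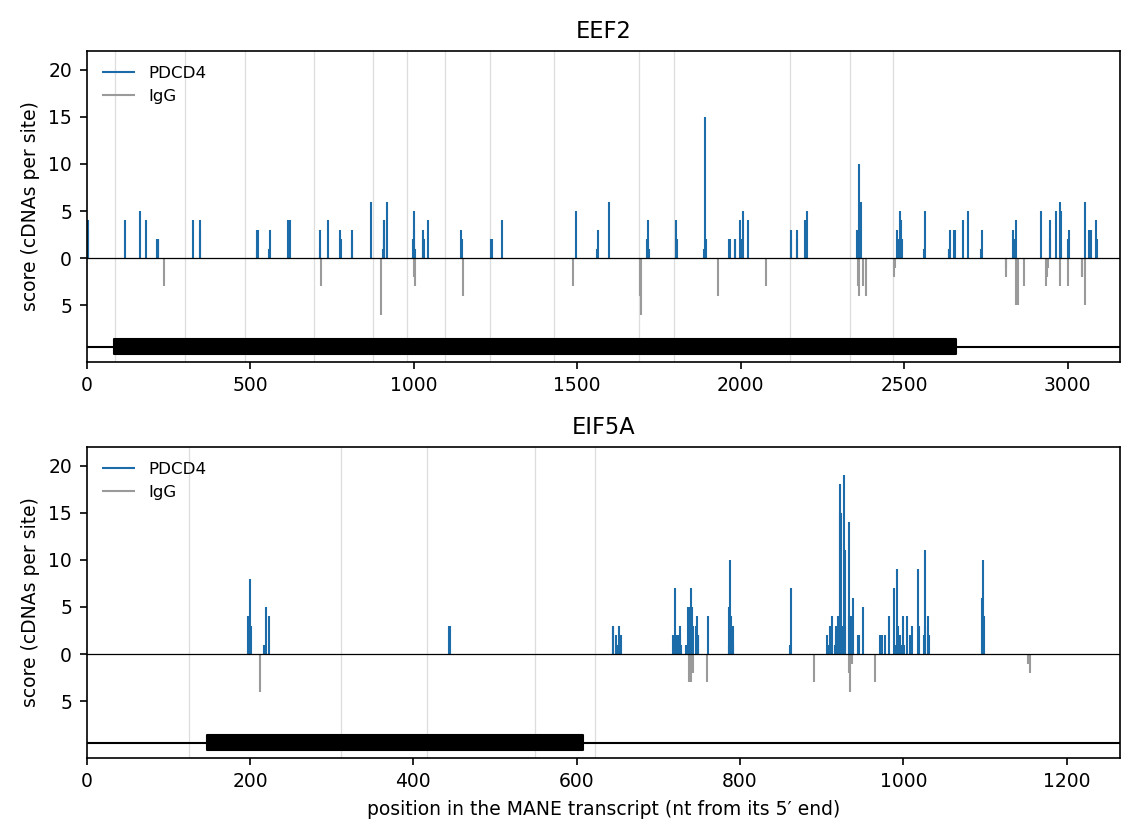
Score of each site along the MANE transcripts of EEF2 and EIF5A in nt from the 5′ end, with PDCD4 sites drawn upwards and IgG sites downwards; grey lines are exon junctions and the black bar is the coding sequence. EEF2 sites are spread over the whole transcript with a highest score of 15, while EIF5A sites gather after the coding sequence, with the highest scores (up to 19) on the U run at positions 911 to 930.

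EEF2 (chr19:3976056-3985463, minus strand) had sites in all 15 exons in the PDCD4 list. Along the coding sequence of the MANE transcript there were 105 cDNAs per kb in the first 858 nt, 68.8 in the middle 858 nt and 146 in the last 858 nt, and the 3′UTR held 160 per kb. The IgG list gave 14.0, 25.6 and 28.0 per kb in the same 3 parts and 75.8 in the 3′UTR. By this transcript, 87 of 129 PDCD4 sites (67.4%, 59.0 to 74.9) and 17 of 34 IgG sites (34.1 to 65.9%) were coding, and 19.4% (13.5 to 27.0) and 41.2% (26.4 to 57.8) were in the 3′UTR, with intervals that just overlapped. The shares of coding sites given above are higher because shorter transcripts of the gene are annotated as coding in part of this 3′UTR.

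The highest EEF2 sites were in exon 12, with a score of 15, and in exon 14, with a score of 10. A further 7 PDCD4 sites had a score of 6, and 2 of them were also IgG sites: position 3976162 with 5 IgG cDNAs and position 3976237 with 3. Both were in the 3′UTR of the MANE transcript, its part with the most IgG cDNAs per kb, and they count as coding where regions are taken over all transcripts.

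Within exons, few EEF2 sites lay near the downstream exon edge. Of the 115 exonic PDCD4 sites, 47 (40.9%, 32.3 to 50.01) were in the first 50 nt after a splice junction, windows that make up 22.2% of the transcript. Only 2 (1.74%, 0.478 to 6.12) were in the last 60 nt before a junction, windows that make up 26.6% of it. The IgG list had the same form, with 12 of 31 sites in the first 50 nt and none in the last 60. EIF5A also had no site in the last 60 nt of an exon in either list, and over the 6 genes 5 of 241 exonic PDCD4 sites were there against 69 in the first 50 nt.

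EEF1D (chr8:143579697-143599541, minus strand) had most of its sites outside its mature mRNA. Only 8 of its 94 PDCD4 sites fell in exons of the MANE transcript, which encodes the long form of the protein with a coding sequence of 1941 nt. The first 3 introns of this transcript held 71 of the sites: 23 with 95 cDNAs in the first, 31 with 104 in the second and 17 with 53 in the third. The fifth intron, the longest at 4890 nt, held 14 with 44 cDNAs. The IgG list had 12, 9, 2 and 2 sites in these 4 introns, with 37, 24, 6 and 8 cDNAs.

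Parts of these introns are exons of other EEF1D transcripts, whose first exons start in several places. Counted over all its transcripts, 19 PDCD4 sites with 61 cDNAs lay in 5′UTRs against 4 with 9 in the IgG list, a log2 ratio of 2.06 (1.17 to 3.39). All exonic sites gave 2.20 (1.54 to 3.10), and sites that were intronic in every transcript gave 1.11 (0.71 to 1.55). The intervals just overlapped. The highest sites had scores of 9 in the third intron (position 143588325) and 8 in a 5′UTR of other transcripts (143596217). Of 4 sites with a score of 7, 3 were intronic in every transcript and 1 lay in an exon of a non-coding transcript. No 20-nt stretch of EEF1D held more than 3.34% of its PDCD4 cDNAs, compared with 29.5% in EIF5A.

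**Figure D5:**
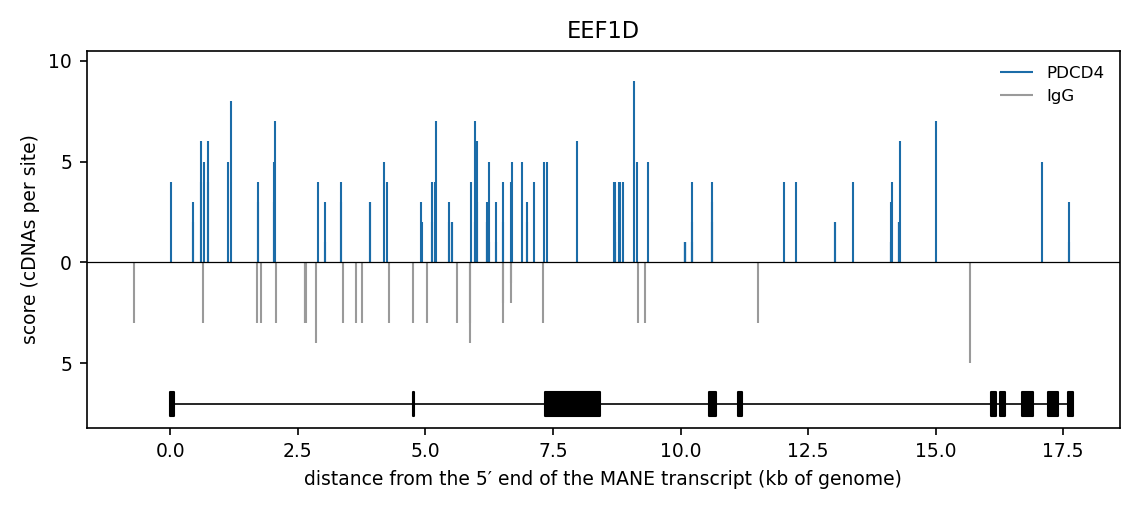
Score of each EEF1D site by its distance in kb of genome from the 5′ end of the MANE transcript, with PDCD4 sites upwards, IgG sites downwards and the exons of that transcript as black boxes. Sites of both lists lie mainly in the first 3 introns, where 71 of the 94 PDCD4 sites fall, and no score exceeds 9.

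EEF1A1 (chr6:73489308-73525587, minus strand), whose mRNA is among the most abundant of growing cells, ranked 1582 by PDCD4 cDNAs among 12912 genes, while EIF5A ranked 55, EEF2 58 and EEF1D 88. These ranks are not per length, and 301 of the 329 EEF1D cDNAs lay outside its MANE exons. Per kb of MANE transcript, EEF1A1 (13.7) and EEF1D (13.4) were not separated. The highest EEF1A1 site, with a score of 13, was in exon 7, 16 nt from the start of the exon. Sites with scores of 7 and 6 followed in exon 3. The 30 nt after these 3 EEF1A1 sites also occurred at 1, 5 and 7 other places of the genome. The 1386-nt coding sequence held 45 of its 63 cDNAs, and the 2063-nt 3′UTR held 3 in each list.

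The 8 EEF1B2 sites had scores of at most 3 (chr2:206159585-206162928, plus strand), and its 2 IgG sites, with 6 and 3 cDNAs, were both in an intron. Without introns EEF1B2 had 13 PDCD4 cDNAs and no IgG cDNA. In EEF1G (chr11:62559596-62574086, minus strand), 4 of the 6 PDCD4 sites lay within 9 nt of its last exon (62559800 to 62559808), with 13 cDNAs and no labelled IgG site in the stretch. In the whole last exon, PDCD4 had 4 sites with 13 cDNAs and IgG 4 with 9, and in exon 2 PDCD4 had 1 site with 3 and IgG 2 with 10. At 1 nucleotide of the EEF1G stretch (62559807) the IgG list had 2 cDNAs under the readthrough label.

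Several of these genes have processed pseudogenes or close paralogues, so reads can fit at more than 1 place. Of all 30-nt windows of the MANE transcript, 83.3% in EEF1G, 81.8% in EEF1B2, 61.6% in EIF5A, 53.0% in EEF1A1, 21.4% in EEF1D and none in EEF2 occurred exactly at another place of the genome. The 30 nt that followed the site did so for 58 of the 102 EIF5A sites and 11 of the 16 EEF1A1 sites in the PDCD4 list, but for 2 of 129 in EEF2. Without such sites EIF5A had 44 sites with 150 cDNAs against 4 with 8, a log2 ratio of 3.50 (2.65 to 4.90). EEF1A1 had 5 with 18 against 1 with 3, a ratio of 1.68 (0.24 to 4.42). EEF2 was at 1.32 and EEF1D at 1.44.

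How the reads of copied sequence were placed is not given in the sources used here, and its part in the levels was not tested. Few sites were listed at the copies themselves: EIF5AL1, an intronless relative of EIF5A, had 3 PDCD4 sites with 9 cDNAs, and EEF1DP3 had 1 with 2, and neither had an IgG site. In unique sequence, the EIF5A transcript had 295 PDCD4 cDNAs per kb of single-copy windows (248 to 349) and EEF2 had 116 (104 to 129), while EEF1A1 had 1.83 (0.38 to 5.36), from 3 cDNAs. EEF1A1 had the same 3 cDNAs and 1.83 per kb in the IgG list, so that no excess was detectable in the unique sequence of its MANE exons at this depth. The other single-copy PDCD4 sites of EEF1A1, 4 with 15 cDNAs, lay outside these exons, in exons of its other transcripts. They are part of the 18 cDNAs behind the ratio of 1.68 above.

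The base at the sites was close to that of the PDCD4 list as a whole. U was at the site in 43.6% of the 280 exonic PDCD4 sites of these genes (37.9 to 49.4) and in 43.3% of the 75439 exonic sites of protein-coding genes. In the IgG list it was at 31.7% of the 60 exonic sites of these genes (21.3 to 44.2) and at 47.5% of those of protein-coding genes. Within the PDCD4 list the genes differed among themselves, with U at 28.0% of EEF2 sites (20.7 to 36.7), 52.0% of EIF5A sites (42.3 to 61.7) and 64.9% of EEF1D sites (48.8 to 78.2). The EIF5A share includes the 16 sites on its U run, which are U by definition. The intervals take neighbouring sites as independent. The MANE transcripts of EEF2 and EIF5A, which held 115 of the 118 and 97 of the 98 sites, are 18.4% and 22.6% U. In EEF2 the most frequent base at the site was C, in the PDCD4 list (34.7%) as in the IgG list (38.7% of 31 sites). G was rare at the next nucleotide downstream, at 3.93% of the PDCD4 sites of the 6 genes. The same held over all protein-coding genes in the PDCD4 list (3.84%) and the IgG list (3.62%).

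The rest of the elongation pathway held few cDNAs. Of 32 genes listed by function (paralogues and partners, enzymes that modify eEF2, eEF1A or eIF5A, termination and rescue factors, and mitochondrial elongation factors), 28 had a site and 7 had at least 50 cDNAs. Of these 7, 2 had a log2 ratio above 1 and none below -1, with a median of 0.27, beside 13.6% and a median of -0.14 over all genes. They were ABCE1, which recycles ribosomes, with 55 cDNAs against 15 (1.24, 0.46 to 2.24), and EEFSEC, the elongation factor for selenocysteine, with 103 against 34 (1.00, 0.46 to 1.64). The interval held 0 for EEF2K, the kinase that inactivates eEF2 (0.05), for DPH6, an enzyme of the diphthamide modification of eEF2 (0.27), and for the mitochondrial factor GFM1 (0.55).

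The release factors ETF1 and GSPT1 also lay near 0. ETF1, or eRF1, had 97 PDCD4 and 59 IgG cDNAs, a log2 ratio of 0.14 (-0.33 to 0.64). GSPT1, or eRF3a, had 71 and 54, a ratio of -0.18 (-0.70 to 0.37). Both enzymes that make hypusine on eIF5A, DHPS and DOHH, had too few cDNAs for a ratio (13 against 3 and 10 against 3). Only 1 of the 32 genes had a PDCD4 site with a score greater than 5, and none had such an IgG site.

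Among other genes of translation, 14 of 24 ribosomal protein genes (symbols RPL or RPS with a number) with at least 50 cDNAs passed the threshold, with a median log2 ratio of 1.24, and 3 of 7 subunits of the initiation factor eIF3 did, with a median of 0.0048. Summed over all genes of each group, the values were 0.93 (0.82 to 1.04) for 75 ribosomal protein genes and 0.38 (0.20 to 0.57) for 13 eIF3 subunits, beside 1.66 for the 6 elongation genes and 1.20 (0.92 to 1.51) for the 4 genes of eEF1. No single ribosomal protein gene had a site above a score of 15, and none of eIF3 above 7.

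For each gene, the most similar other gene was taken as that with the smallest distance over 3 numbers (log2 cDNAs per 10000 in each list, and the coding share of PDCD4 cDNAs). EIF5A was nearest to PTRF, which encodes a caveolar coat protein, with 287 cDNAs against 25 and 13.9% of its PDCD4 cDNAs coding. EEF2 was nearest to HNRNPU, which encodes a nuclear RNA-binding protein (378 against 82), and EEF1A1 to GNB2, a G protein subunit (62 against 8). EEF1D was nearest to RP1-5O6.7 (323 against 75), EEF1G to LIMA1 (26 against 24) and EEF1B2 to KLHL5 (36 against 14). The distance was smallest for EEF1A1 (0.0960) and largest for EIF5A (0.525), so EIF5A had the least similar neighbour of the 6.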

How the data were processed

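iCLIP was performed in MCF10A cells with PDCD4 antibody or control IgG, with 2 samples each. According to the methods, the authors mapped reads to the Ensembl release 88 genome with iCount, subtracted IgG crosslink sites from the PDCD4 replicates, merged these replicates and then called peaks. The deposited lists nevertheless share 721 positions. Scores in the deposited lists are raw cDNA counts per 1-nt site and were not normalised. The alignment settings are not given in the sources used here. No value per replicate is given, so ratios carry exact conditional 95% binomial (Clopper-Pearson) intervals, shares Wilson intervals and levels exact Poisson intervals, for counting error only.

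Here, sites were matched by exact symbol, and every listed site was used unless a score minimum is named. Regions were assigned on GENCODE release 44, over each gene's own transcripts, with coding sequence taken first, then 3′UTR, 5′UTR, non-coding exon and intron. All 270283 sites lay within the chromosome lengths of the reference. The 30 nt following each site were searched exactly in both strands of the genome. Ratios are log2 of the shares of all cDNAs, with a pseudocount of 1. The members and gene lists were chosen with earlier results of these data known. Genes named are the 6 genes, genes of the pathway lists with at least 50 cDNAs, and the nearest gene of each. DHPS, DOHH, EIF5AL1, EEF1DP3 and the readthrough gene were named after their values were seen. Alternatives were other score minimums, site numbers, totals, pseudocounts, labels, regions and transcripts, leaving out shared positions or copied sequence, and leaving out EIF5A (added after seeing the data, as were 2 others on labels and exonic totals). Scripts were tested on simulated data. Python 3.11.15, numpy 2.4.6, scipy 1.17.1, pysam 0.24.0 and matplotlib 3.10.9 were used.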

Additional observations from a re-analysis of the deposited data

How the results depend on the processing

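No paired analysis was possible because each list pools the replicates of its group and gives no value per replicate. For the same reason, no fit without a replicate was run.

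The pooled log2 ratio of the 6 genes was above 0 in all 13 alternatives, between 1.27 and 2.30. It left the interval of the main value (1.47 to 1.86) in 5 of them. It was 2.30 at scores greater than 5, 1.33 at scores greater than 10, 1.91 with exonic sites only, 1.32 over exonic totals and 1.27 without EIF5A. At scores greater than 10 its own interval, which had no upper limit, still held the main value of 1.66. No gene passed the fold at scores greater than 10 (0 in place of 4), where the IgG list had 7 sites and 100 cDNAs in all and none in these genes. There the sign of EEF1A1 (-1.91) and EEF2 (-1.72) reversed, as did that of EEF1G (0.85) at scores greater than 5. In each of these 3 cases the IgG count was 0, so that the value is set by the added cDNA and the totals. EEF1B2 went from 0.28 to -4.76 at scores greater than 5, where it had no PDCD4 cDNA and 6 IgG cDNAs at 1 site. The coding share of PDCD4 sites moved to 54.2% without EIF5A (48.6% over every site). That of IgG sites went from 2 of 3 sites to 2 of 2 (34.2 to 100%) without sites of several labels, too few to read. The IgG share has no value at scores greater than 10. EEF1D and EIF5A stayed above 0 in all 12 alternatives run for each (1.25 to 4.29 and 0.98 to 5.61). The IgG count was also 0 for 4.29 and 5.61, at scores greater than 5, and for 0.98, at scores greater than 10. These values too are set by the added cDNA and the totals. At scores greater than 10 the lower limits were below 0 for EIF5A (-0.94) and for the pooled value (-0.59), again with no IgG cDNA. The cause of the other shifts was not tested. Depth limited EEF1B2 and EEF1G, with fewer than 50 cDNAs each, and scores greater than 10 in the IgG list.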
